A study of Mus musculus with 24 samples.

Results

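The comparison described here is the effect of hepatocyte Cav1 knockout in livers of control-fed mice, common to both genders. It rests on all 12 arrays of the control diet out of 24 in the series, 6 from HepCAV1ko and 6 from HepCAV1wt mice, with 3 males and 3 females of each genotype. HepCAV1ko mice carried floxed Cav1 on both alleles and 1 copy of Alb-Cre, a recombinase that the albumin promoter drives in hepatocytes. HepCAV1wt mice carried the same floxed alleles without Cre, so an effect of Cre itself and of the loss of Cav1 cannot be told apart. Both genotypes ate regular chow up to 8 weeks of age and then a control diet that held methionine and choline for 4 weeks, and total RNA of whole liver was hybridised to Affymetrix mouse gene arrays. The other 12 arrays came from mice of the same genotypes on the methionine and choline deficient (MCD) diet and serve only for a comparison at the end. Whole liver also holds endothelial, stellate and immune cells, in which Alb-Cre is not active, and in such bulk RNA fewer cells of a type and less RNA per cell cannot be told apart.

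Caveolin-1, the product of Cav1, is the main coat protein of caveolae, small flask-shaped pits of the plasma membrane that the cavins stabilise and caveolin-2 accompanies. It binds cholesterol, takes part in its traffic and holds signalling receptors at the membrane. In the liver it is abundant in endothelium and scarce in resting hepatocytes, which carry out the lipid, steroid and drug metabolism that differs between male and female mice under the pulsed or steady release of growth hormone.

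Expression is given as log2 values, where a difference of 1 is a 2-fold difference, and fold changes are HepCAV1ko over HepCAV1wt after a term for gender. The median over the 24704 genes tested was 3.82. Arrays of a group correlated at 0.983 to 0.991, and the 12 arrays separated by gender along the axis of largest variation, which held 32.8% of it. HepCAV1ko control male replicate 3 and HepCAV1wt control female replicate 1 stood apart from their groups, with array weights of 0.634 and 0.62. Many, but not all, results that moved without either array are given with and without it. Hepatocyte genes were high on all arrays, Alb with a mean log2 value of 13.5 and Apoa1 with 12.7. Since nothing in the labels ties an array to a separate mouse, p-values reflect the spread between arrays only, part of which may be technical.

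No gene passed an adjusted p under 0.05 in the comparison over both genders, where limma gave a smallest adjusted p of 0.958. At an unadjusted p under 0.05 it gave 1179 genes (4.77% of 24704), 603 higher (2.44%) and 576 lower (2.33%) in HepCAV1ko, against 1235.2 genes that make up 5%. The 95% interval of a gene's log2 fold change reached a median of 0.25 to either side. Of the 1179 genes, 1161 (98.5%) had the same sign in males and females. The genes were picked by the effect common to both genders, which favours a shared sign, so this share does not measure agreement between genders. Over all 24704 genes the share was 50.6%. The 6 HepCAV1ko and the 6 HepCAV1wt arrays did not overlap for 32 genes (0.13%), 15 higher (0.0607%) and 17 lower (0.0688%). How many of all genes separate the genotypes within a single gender was not counted, so a lack of overlap there is only a description. Counts of genes use the unadjusted limma p, and single genes carry an exact permutation p, two-sided, from exchanges of genotype within gender, of which 0.005 is the smallest that 400 assignments can give. A gene counted at a limma p under 0.05 may have a permutation p above it. Genes whose genotypes do not overlap in either gender, with 1 direction in both, have the smallest permutation p by construction. This held for 106 genes (0.429%).

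Cav1 itself (chr6:17306335-17341328, GRCm38.p6) had log2 values of 4.02, 3.76 and 3.51 in HepCAV1ko males and 3.87, 4.12 and 3.83 in HepCAV1ko females, against 4.47, 4.94 and 3.84 in HepCAV1wt males and 3.91, 4.88 and 4.40 in HepCAV1wt females. The ranges overlapped, since HepCAV1wt male replicate 3 and female replicate 1 lay within those of HepCAV1ko. The log2 fold change was -0.55 (SE 0.186, 95% interval -0.95 to -0.15, limma p = 0.01, exact permutation p = 0.035), with -0.65 in males and -0.45 in females. Its p stayed under 0.05 without any 1 of the 12 arrays, with fold changes between -0.67 and -0.42. The sources used here do not place the probes of Cav1 against the deleted part of the gene, so the values cannot check the genotype labels.

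The partners of caveolin-1 had smaller differences, and, as for Cav1 itself, none passed after adjustment. Cav2, the companion caveolin, had a log2 fold change of 0.06 (95% interval -0.16 to 0.28). Cavin1, the cavin that caveolae need, had one of -0.22 (95% interval -0.51 to 0.07), with -0.11 without HepCAV1ko control male replicate 3. Of 12 caveolae genes, 0 were higher and 2 lower at an unadjusted p under 0.05 (16.7% against 4.77% of all genes), Cav1 and Ror1, a receptor kinase that binds cavin and caveolin, at -0.37 (exact permutation p = 0.055). Their log2 fold changes had a median of 0.006, against -0.0008 over all genes, and of -0.04 without HepCAV1ko control male replicate 3, where Cav2 had -0.002. None of 11 genes that neighbour Cav1 on the chromosome had an unadjusted p under 0.05.

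**Figure D1:**
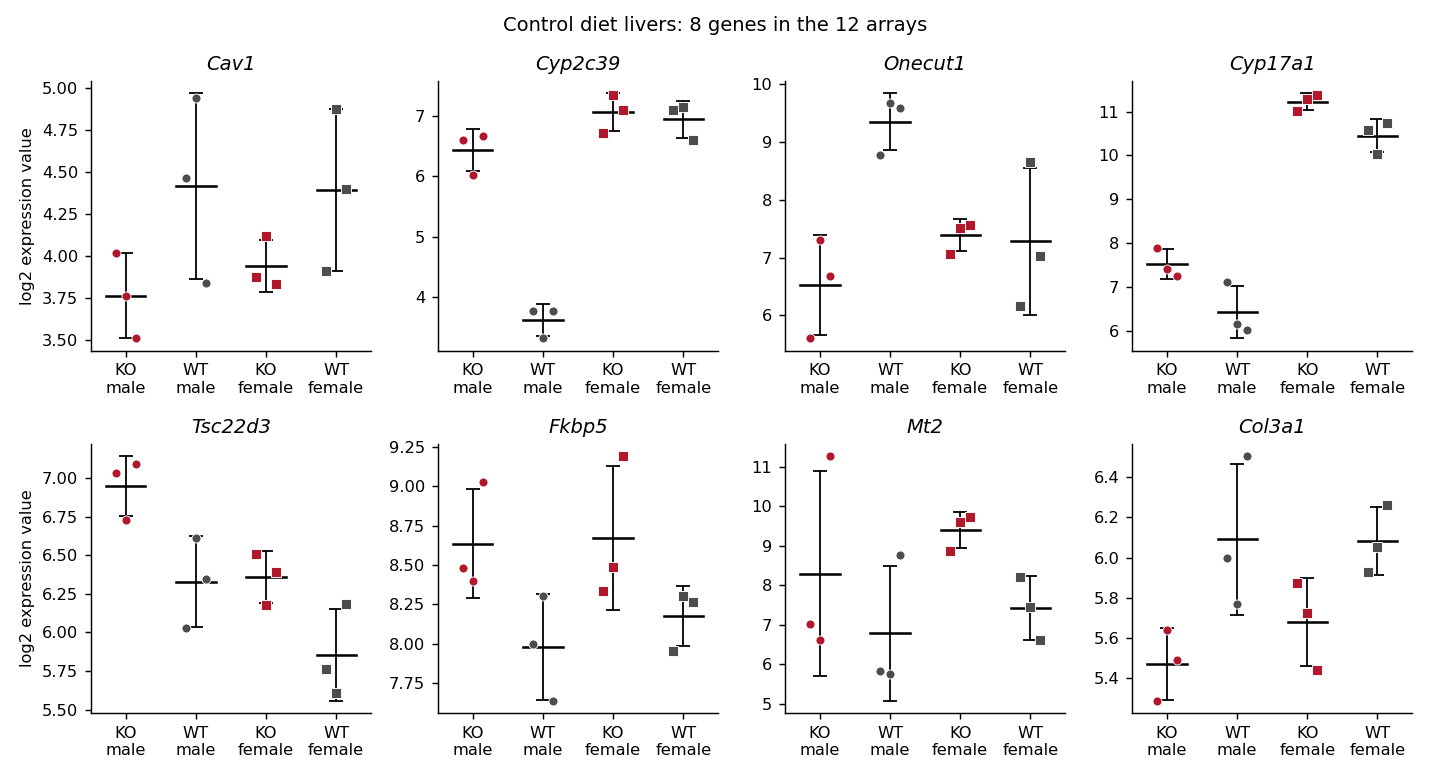
Log2 values of 8 genes in the 12 control-diet arrays, for KO and WT males and KO and WT females (points, arrays; line, group mean; bar, SD). Cyp2c39 and Onecut1 separate the genotypes in males, while Cyp17a1, Tsc22d3, Fkbp5 and Col3a1 differ in the same direction in both genders.

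Cyp2c39, a P450 enzyme that acts on retinoic acid and arachidonic acid in mice and is higher in female than in male livers, was higher in HepCAV1ko, and the difference lay in males. The log2 values were 6.60, 6.03 and 6.67 in HepCAV1ko males against 3.78, 3.31 and 3.77 in HepCAV1wt males, with no overlap, and 6.73, 7.35 and 7.10 in HepCAV1ko females against 7.10, 7.14 and 6.60 in HepCAV1wt females, with overlap. HepCAV1ko males thus lay near the level of the females and HepCAV1wt males far below it. Over both genders the log2 fold change was 1.46 (SE 0.388, 95% interval 0.64 to 2.29, limma p = 0.00196, exact permutation p = 0.03). Within males Cyp2c39 rose by 2.82 in HepCAV1ko (limma adjusted p = 0.000178), the 1 gene called of 24704 (0.00405%), and in females the log2 fold change was 0.11. The difference between genders was 2.70 and passed (limma adjusted p = 0.0188), as the 1 gene called (0.00405%) where 1242 (5.03%) had an unadjusted p under 0.05, 2.36% with a higher and 2.67% with a lower fold change in males than in females. However, 9 of the 12 leave-outs of 1 array took it past 0.05, with a highest adjusted p of 0.108.

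Most other Cyp2c genes measured, which lie with Cyp2c39 in a cluster on chromosome 19, had fold changes below 0, and Cyp2c70 had 0.11. Cyp2c37, an epoxygenase of arachidonic acid, had log2 values of 8.67, 8.53 and 7.35 in HepCAV1ko males against 9.71, 8.89 and 9.77 in HepCAV1wt males, and of 11.15, 10.76 and 10.60 in HepCAV1ko females against 11.29, 10.78 and 10.93 in HepCAV1wt females. All HepCAV1ko males were below all HepCAV1wt males, while the females overlapped. Its log2 fold change was -0.72 (exact permutation p = 0.04), and -0.47 without HepCAV1ko control male replicate 3. Cyp2c54 had -0.61 (exact permutation p = 0.045), Cyp2c55 -0.56 (exact permutation p = 0.07) and Cyp2c29 -0.33 (exact permutation p = 0.07, with a limma p under 0.05 in 6 of 12 leave-outs). Without HepCAV1ko control male replicate 3, Cyp2c54 had -0.46 and Cyp2c55 -0.45. Of 19 P450 genes and receptors of drug metabolism, 1 was higher and 4 were lower at an unadjusted p under 0.05 (26.3% against 4.77%), with a median log2 fold change of -0.19. Without both arrays that stand apart the counts were 1 and 0. These genes are close in sequence, and a probe of one may read another.

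Because these neighbours differed in sign, the promoter windows of Cyp2c39 (the first of 2 starts in the table), of Cyp2c29 and of Cyp2c37 are printed, each from 250 bases before to 50 bases after the start, on the plus strand of chr19:39347096-39347395, chr19:39286835-39287134 and chr19:39992174-39992473 (RefSeq, GRCm38.p6). Capitals mark CAAAGTC, a core to which the hepatocyte factor HNF4A binds, searched on both strands.
Cyp2c39: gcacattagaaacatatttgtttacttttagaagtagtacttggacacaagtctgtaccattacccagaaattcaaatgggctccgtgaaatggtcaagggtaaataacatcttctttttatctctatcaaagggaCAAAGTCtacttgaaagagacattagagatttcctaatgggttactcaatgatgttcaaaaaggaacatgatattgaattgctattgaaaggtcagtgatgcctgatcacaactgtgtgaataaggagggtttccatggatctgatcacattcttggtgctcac
Cyp2c29: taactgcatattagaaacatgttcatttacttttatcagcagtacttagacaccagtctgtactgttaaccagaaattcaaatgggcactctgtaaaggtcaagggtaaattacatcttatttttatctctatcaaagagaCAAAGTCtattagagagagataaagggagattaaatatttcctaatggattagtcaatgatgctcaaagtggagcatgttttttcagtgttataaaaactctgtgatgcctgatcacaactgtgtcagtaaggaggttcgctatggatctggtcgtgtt
Cyp2c37: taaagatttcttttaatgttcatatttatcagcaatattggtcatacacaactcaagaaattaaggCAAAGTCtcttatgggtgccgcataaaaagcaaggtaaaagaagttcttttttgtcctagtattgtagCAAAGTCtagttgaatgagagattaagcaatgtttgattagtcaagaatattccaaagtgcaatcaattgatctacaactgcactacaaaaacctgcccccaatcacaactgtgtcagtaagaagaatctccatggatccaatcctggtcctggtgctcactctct
Cyp2c39, whose log2 fold change was above 0, and Cyp2c29, whose log2 fold change was below 0, both held 1 match, which began at position -114 in Cyp2c39 and -109 in Cyp2c29, counted from the start. At the second start of Cyp2c39 (chr19:39510572-39510871), whose window is not printed, the match began at -86. The printed start is first by coordinate only, and which start the measured transcript uses was not checked. Cyp2c37 held 2 matches, at -184 and -116. The core stood in 4.44% of 32851 promoter windows, and at least 2 copies in 0.116%. Cyp2c54 had no window in the table.

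Onecut1 and Cish had the same gender pattern as Cyp2c39 but the opposite direction. Onecut1 (HNF6), a hepatocyte transcription factor, had log2 values of 5.60, 7.30 and 6.68 in HepCAV1ko males against 8.78, 9.67 and 9.59 in HepCAV1wt males, and of 7.07, 7.52 and 7.57 in HepCAV1ko females against 6.16, 8.65 and 7.03 in HepCAV1wt females. The males did not overlap and the females did. The log2 fold change over both genders was -1.36 (limma p = 0.0216, exact permutation p = 0.065), with 0.10 in females, and the difference between genders was -2.93 (limma adjusted p = 0.881).

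Cish, a feedback inhibitor of cytokine receptors that STAT5 induces, had log2 values of 5.57, 5.52 and 6.22 in HepCAV1ko males against 7.65, 7.25 and 7.62 in HepCAV1wt males. In females they were 6.34, 6.92 and 6.62 in HepCAV1ko against 5.49, 6.99 and 6.74 in HepCAV1wt. Again the males alone did not overlap, with a log2 fold change of -0.76 over both genders (exact permutation p = 0.085) and 0.22 in females. The Cish promoter is shown as a growth hormone target, from 250 bases before to 50 after its start, on the plus strand of chr9:107296409-107296708 (RefSeq, GRCm38.p6), with capitals for the STAT site TTCNNNGAA, which reads the same on both strands.
Cish: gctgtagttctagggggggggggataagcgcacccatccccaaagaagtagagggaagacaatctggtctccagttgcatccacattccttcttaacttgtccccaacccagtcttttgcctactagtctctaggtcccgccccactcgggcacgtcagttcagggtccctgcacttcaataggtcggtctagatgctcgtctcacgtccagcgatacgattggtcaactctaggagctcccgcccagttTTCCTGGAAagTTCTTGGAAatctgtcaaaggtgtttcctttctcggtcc
It held 2 matches, which began 0 and 11 bases after the start, where 8.3% of 32851 windows held at least 1 match and 0.457% at least 2.

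Growth hormone signalling as a list had 1 gene higher and 4 lower of 15 at an unadjusted p under 0.05 (33.3% against 4.77%) and a median log2 fold change of -0.10. Besides Onecut1 and Cish, the lower genes were Jak2, the kinase of the growth hormone receptor, at -0.26 (exact permutation p = 0.035) and Socs2, a feedback inhibitor of that receptor, at -0.17 (exact permutation p = 0.015). The higher gene was Cux2, a repressor that female livers express, at 0.53, and 0.40 without HepCAV1wt control female replicate 1. Without HepCAV1ko control male replicate 3 the counts were 1 and 1, and without HepCAV1wt control female replicate 1 the median was -0.06. Stat5b and Ghr, the transcription factor and the receptor, had log2 fold changes of -0.12 and -0.10 and were not among the genes counted.

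In a list of 18 female-biased liver genes 12 fold changes were above 0, and in one of 17 male-biased genes 15 were below 0. Of the 18 female-biased genes, 5 were higher and 0 lower at an unadjusted p under 0.05 (27.8% against 4.77%), with a median log2 fold change of 0.25, -0.04 in males and 0.29 in females. The median was 0.14 without HepCAV1wt control female replicate 1, and over the leave-outs it ran from 0.10 (without HepCAV1wt control female replicate 2) to 0.37. The 5 genes were Cyp2c39, Cux2, Cyp17a1, Sult3a1 and A1bg, and the first pair also stand in the lists above. Cyp17a1, an enzyme of steroid hormone synthesis, separated the genotypes in both genders. Its log2 values were 7.90, 7.42 and 7.25 in HepCAV1ko males against 7.12, 6.15 and 6.02 in HepCAV1wt males, and 11.02, 11.28 and 11.39 in HepCAV1ko females against 10.58, 10.03 and 10.74 in HepCAV1wt females. No HepCAV1ko array overlapped a HepCAV1wt array of its gender, which held for 106 genes (0.429%) with 1 direction in both genders, 54 higher (0.219%) and 52 lower (0.21%). The log2 fold change was 0.94 (SE 0.191, 95% interval 0.53 to 1.35, limma p = 0.000222, exact permutation p = 0.005), 1.09 in males and 0.78 in females, and it stayed between 0.83 and 1.07 over the leave-outs.

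Sult3a1, a sulfotransferase that female mouse livers make, had log2 values of 9.26, 8.79 and 9.63 in HepCAV1ko females against 8.52, 8.22 and 6.46 in HepCAV1wt females. In males it lay far lower, at 2.01, 1.89 and 1.97 in HepCAV1ko against 1.84, 1.59 and 1.62 in HepCAV1wt, and neither gender overlapped. Its log2 fold change was 0.89 (exact permutation p = 0.005), and 0.53 without HepCAV1wt control female replicate 3. A1bg, a plasma glycoprotein with the same bias, had 10.71, 11.29 and 9.78 in HepCAV1ko females against 9.25, 9.22 and 8.46 in HepCAV1wt females. Those arrays did not overlap, and the log2 fold change was 0.88 over both genders (exact permutation p = 0.015), 1.61 in females and 0.14 in males, where all values lay between 2.85 and 3.22.

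Of 17 male-biased genes, 0 were higher and 4 lower at an unadjusted p under 0.05 (23.5%), with a median log2 fold change of -0.17. Without HepCAV1ko control male replicate 3 the count was 2 and the median -0.08. The other direction held for 2 of the 17 genes, up to 0.71. Moxd1, a member of this list, rose by 2.32 in HepCAV1ko males without HepCAV1wt control male replicate 1 (limma adjusted p = 0.0243). Besides Cyp2c29 the lower genes were Nudt7, a peroxisomal hydrolase of coenzyme A, at -0.36 (exact permutation p = 0.025), the P450 Cyp2d9 at -0.59 (exact permutation p = 0.08, with a limma p under 0.05 in 8 of 12 leave-outs and -0.36 without HepCAV1wt control female replicate 2) and the alpha-1-antitrypsin gene Serpina1e at -1.74 (exact permutation p = 0.075). Over all genes, 301 (1.22%) were higher and 390 (1.58%) lower in males than in females at an adjusted p under 0.05. That call used the same 12 arrays and favours genes with little spread. This can raise their share at an unadjusted p for genotype, so the shares that follow do not measure a genotype effect. The 301 genes had a median genotype effect of -0.05, with 18 higher and 25 lower at an unadjusted p under 0.05 (14.3% against 4.77%). The 390 genes had one of -0.01, with 187 above 0 and with 18 higher and 18 lower (9.23%). Among those that differed by over 1 on the log2 scale, 84 male-biased genes had a median of -0.12, with 4 higher and 10 lower (16.7%), and 109 female-biased genes one of 0.03, with 59 above 0 and with 9 higher and 4 lower (11.9%).

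Serpina1e and its neighbour Serpina1d encode forms of the plasma protease inhibitor alpha-1-antitrypsin, and each was low on some HepCAV1ko arrays of the control diet. Serpina1e had log2 values of 7.90, 13.00 and 12.73 in HepCAV1ko males against 12.88, 12.96 and 12.12 in HepCAV1wt males, and of 6.95, 6.80 and 8.94 in HepCAV1ko females against 9.52, 9.22 and 10.04 in HepCAV1wt females. Of the HepCAV1ko males 1 lay far below the others, and all HepCAV1ko females lay below all HepCAV1wt females. Without HepCAV1ko control male replicate 1 the log2 fold change was -1.03. Serpina1d had 6.26, 12.45 and 12.31 in HepCAV1ko males against 12.46, 12.35 and 12.04 in HepCAV1wt males, and 5.41, 12.32 and 12.41 in HepCAV1ko females against 12.50, 12.33 and 12.23 in HepCAV1wt females. It was thus low on 2 arrays of HepCAV1ko and at one level on the other 10, with a log2 fold change of -2.13 (limma p = 0.0871, exact permutation p = 0.34). On the MCD diet the lowest HepCAV1wt array had 5.40 and the lowest HepCAV1ko array 12.12. The genes of this family are near copies, so the probes of one may read another.

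Over all 12 arrays, the list with the highest median was that of genes induced by glucocorticoids and fasting. Glucocorticoids act through a nuclear receptor that switches on glucose production, metallothioneins and its own inhibitors in hepatocytes. Of 26 genes, 9 were higher and 0 lower at an unadjusted p under 0.05 (34.6% against 4.77%), 24 of 26 fold changes were above 0 and the median was 0.28, with 0.48 in males and 0.15 in females. The mean of the list over its genes ran from 7.65 to 8.42 in HepCAV1ko arrays (median 7.78) and from 7.26 to 7.79 in HepCAV1wt arrays (median 7.53). Without HepCAV1ko control male replicate 3, which had the highest mean, the count was 6 and the median 0.26, and without both arrays that stand apart they were 4 and 0.23. The order of the lists depended on the arrays, since the female-biased list had the higher median in both of these settings (0.31 and 0.34) and in other leave-outs, and cholesterol synthesis without HepCAV1wt control female replicate 1 (0.29 against 0.27).

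Tsc22d3, the leucine zipper protein that glucocorticoids induce, had log2 values of 7.03, 6.73 and 7.09 in HepCAV1ko males against 6.03, 6.61 and 6.34 in HepCAV1wt males, and of 6.51, 6.17 and 6.39 in HepCAV1ko females against 5.77, 5.61 and 6.18 in HepCAV1wt females. The males did not overlap, and in females 1 array of each genotype lay at 6.17 and 6.18. Its log2 fold change was 0.56 (SE 0.127, 95% interval 0.29 to 0.84, limma p = 0.000543, exact permutation p = 0.01). Fkbp5, a co-chaperone that restrains the glucocorticoid receptor, had 8.48, 8.40 and 9.03 in HepCAV1ko males and 8.34, 8.48 and 9.19 in HepCAV1ko females, against 8.00, 8.30 and 7.64 in HepCAV1wt males and 7.95, 8.30 and 8.27 in HepCAV1wt females. All 6 HepCAV1ko arrays were above all 6 HepCAV1wt arrays, by 0.03 at the closest. The log2 fold change was 0.58 (SE 0.165, limma p = 0.00348, exact permutation p = 0.005) and 0.66 in males and 0.50 in females.

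Mt2, a metallothionein that binds zinc and copper, had the largest difference of the list and a wide spread. It had log2 values of 7.01, 6.60 and 11.28 in HepCAV1ko males and 8.88, 9.60 and 9.72 in HepCAV1ko females, against 5.84, 5.75 and 8.76 in HepCAV1wt males and 8.21, 7.45 and 6.61 in HepCAV1wt females. The females did not overlap, and in each genotype replicate 3 of the males lay far above the other males. The log2 fold change was 1.75 (SE 0.705, 95% interval 0.24 to 3.25, limma p = 0.0263, exact permutation p = 0.08), and 1.11 without HepCAV1ko control male replicate 3. Its neighbour Mt1 had 0.98 (exact permutation p = 0.12), and 0.53 without HepCAV1ko control male replicate 3.

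Further genes of the list bear on fuel supply. Tat, which starts the breakdown of tyrosine, had log2 values of 12.62, 12.46 and 12.57 in HepCAV1ko males against 11.98, 11.96 and 11.86 in HepCAV1wt males, while the females overlapped, and a log2 fold change of 0.37 (exact permutation p = 0.035). Igfbp1, which binds insulin-like growth factors and is made in fasting, had 8.04, 7.25 and 8.52 in HepCAV1ko males against 5.40, 6.16 and 6.89 in HepCAV1wt males, and 7.65, 6.46 and 8.88 in HepCAV1ko females against 6.32, 8.02 and 8.12 in HepCAV1wt females. It separated males only, with 0.98 over both genders (exact permutation p = 0.125, with a limma p under 0.05 in 4 of 12 leave-outs). Foxo1, a transcription factor that insulin restrains, had 0.33 (exact permutation p = 0.01), Angptl4, an inhibitor of lipoprotein lipase, 0.51 (exact permutation p = 0.05), Pck1, an enzyme of glucose production, 0.28 (exact permutation p = 0.06), and the clock gene Per1 0.36 (exact permutation p = 0.1). A limma p under 0.05 held in 5 of 12 leave-outs for Pck1 and in 4 for Per1. The 2 genes of the list below 0 were the insulin receptor substrate Irs2 at -0.32 and the phosphatase Dusp1 at -0.11.

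Outside this list, Cebpb and Cebpd, transcription factors of the hepatic stress response, lay in the same direction. Cebpb had log2 values of 8.12, 8.07 and 8.72 in HepCAV1ko males against 7.49, 7.90 and 7.94 in HepCAV1wt males, and of 7.58, 7.73 and 8.15 in HepCAV1ko females against 7.25, 7.43 and 7.43 in HepCAV1wt females. Neither gender overlapped, and the log2 fold change was 0.49 (SE 0.136, limma p = 0.00281, exact permutation p = 0.005), with 0.35 for Cebpd (exact permutation p = 0.015). Noct, a rhythmic hepatic gene that regulates nucleotide cofactors, had 0.62 (exact permutation p = 0.07), and 0.47 without HepCAV1wt control female replicate 1. Of 23 clock genes and their outputs, 2 were higher (Noct and Per1) and 0 lower at an unadjusted p under 0.05 (8.7%), with a median of 0.05.

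**Figure D2:**
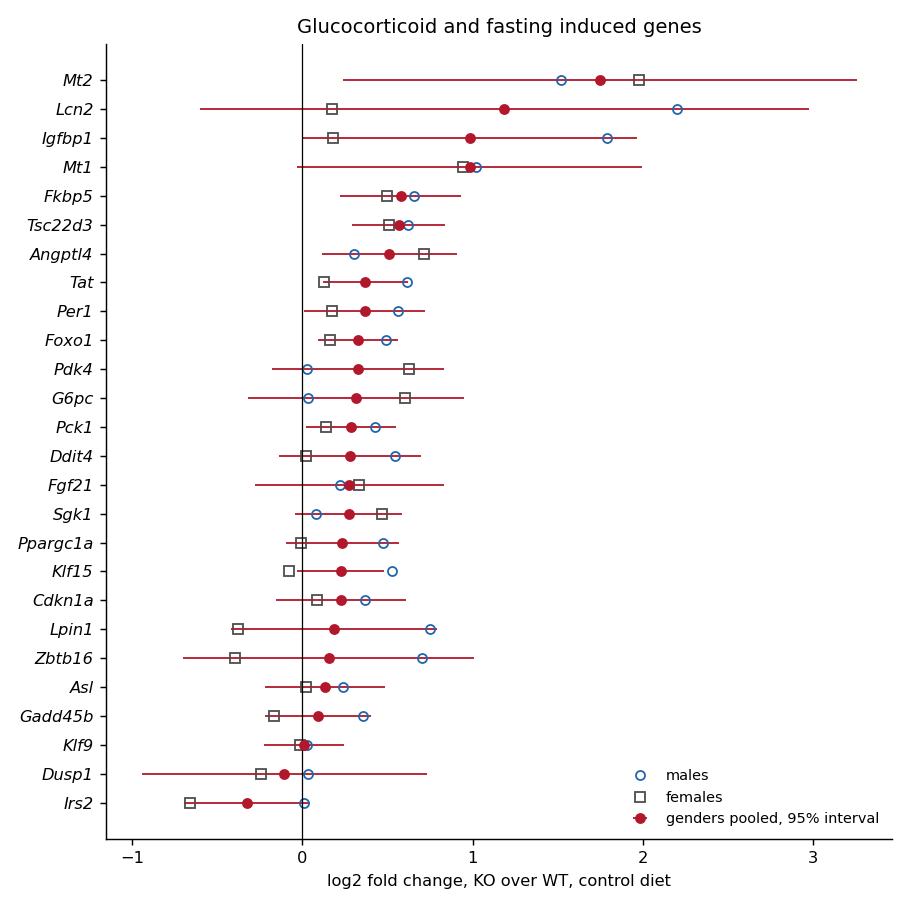
Log2 fold change, HepCAV1ko over HepCAV1wt, of 26 genes induced by glucocorticoids and fasting (filled points with 95% intervals, both genders; open circles, males; open squares, females). Of the 26 points over both genders, 24 lie above 0, and the intervals of 9 leave out 0.

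Genes of the acute phase, the liver's response to inflammation, were high on 1 array. All 27 had a fold change above 0 and their median was 0.12, but 1 was higher at an unadjusted p under 0.05 (3.7% against 4.77%). The mean of the list was 10.84 in HepCAV1ko control male replicate 3, against 8.93 to 9.16 in the other HepCAV1ko arrays and 8.70 to 9.22 in HepCAV1wt arrays. Serum amyloid Saa1 had 13.10 and lipocalin Lcn2 12.66 on that array, and without it their log2 fold changes were 0.05 and 0.25 in place of 0.83 and 1.18, and the list's median was -0.002. Genes induced by glucocorticoids, a list that also holds Lcn2, had their highest mean on the same array, and the part of inflammation in their difference was not tested.

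Lists of lipid metabolism had medians of opposite sign in males and females. So did many lists outside lipid metabolism, such as interferon response (-0.08 in males, 0.06 in females) and amino acid and urea cycle (0.09 and -0.08). Over all genes the effects in males and females had Pearson's r of -0.0048. Of 20 genes of cholesterol synthesis and uptake, 2 were higher and 0 lower (10% against 4.77%), with a median log2 fold change of 0.22 over both genders, 0.49 in males and -0.03 in females. The median was 0.06 without HepCAV1wt control male replicate 3, whose mean over the list was 7.71 against 8.25 to 8.54 in the other HepCAV1wt arrays. Mvk, the mevalonate kinase, had log2 values of 6.05, 6.76 and 6.21 in HepCAV1ko males against 5.82, 5.91 and 5.38 in HepCAV1wt males, which did not overlap, and of 5.96, 5.64 and 6.49 in HepCAV1ko females against 5.56, 5.85 and 5.56 in HepCAV1wt females, which did. Its log2 fold change was 0.51 (exact permutation p = 0.015), and that of Hsd17b7, a sterol reductase of the same pathway, 0.39 (exact permutation p = 0.08).

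Of 24 targets of PPAR alpha, the fatty acid sensor of hepatocytes, 1 was higher at an unadjusted p under 0.05 (Angptl4) and 0 lower (4.17% against 4.77%). The median was 0.08 over both, with -0.21 in males and 0.50 in females. It was 0.18 without HepCAV1ko control male replicate 3, where 2 were higher and 1 lower, and ran from 0.008 (without HepCAV1ko control female replicate 2) to that value over the leave-outs. The mean of the list was 7.74, 8.21 and 7.98 in HepCAV1ko females against 7.54, 7.34 and 7.56 in HepCAV1wt females, with no overlap, and 7.18, 6.52 and 6.05 in HepCAV1ko males against 6.99, 6.81 and 6.68 in HepCAV1wt males. Acot1, a thioesterase of acyl-CoA, had log2 fold changes of 1.43 in females and -0.30 in males, and Vnn1, a pantetheinase, of 1.42 and -0.53. Of 18 genes of mitochondrial fatty acid oxidation 0 had an unadjusted p under 0.05, with medians of -0.18 in males and 0.18 in females. The difference between genders passed for none of these genes. Of 22 genes of lipogenesis 0 had an unadjusted p under 0.05, with a median of 0.07, and likewise 0 of 25 genes of endocytosis and membrane receptors, with a median of -0.02.

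**Figure D3:**
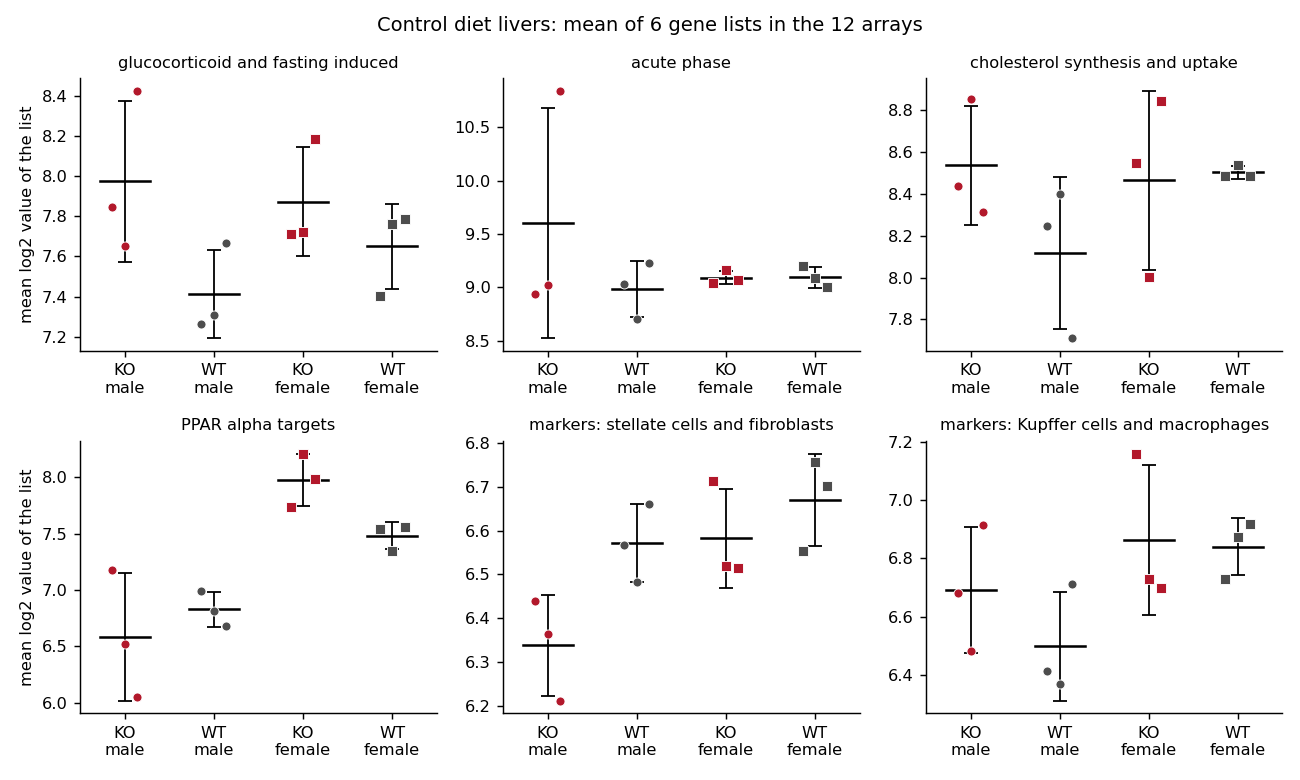
Mean log2 value of 6 gene lists in the 12 control-diet arrays, for KO and WT males and KO and WT females (points, arrays; line, group mean; bar, SD). The acute phase mean of 10.84 belongs to 1 KO male, and PPAR alpha targets lie higher in KO than in WT females but not in males.

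Markers of stellate cells and fibroblasts mostly had fold changes below 0. Of 14 genes, 0 were higher and 3 lower at an unadjusted p under 0.05 (21.4% against 4.77%), with a median of -0.15, which was -0.08 without HepCAV1wt control male replicate 3, and 11 of 14 fold changes below 0. Their mean ran from 6.21 to 6.71 in HepCAV1ko arrays (median 6.48) and from 6.48 to 6.76 in HepCAV1wt arrays (median 6.61). Col3a1, a fibrillar collagen chain, had log2 values of 5.28, 5.64 and 5.49 in HepCAV1ko males against 6.0, 5.77 and 6.51 in HepCAV1wt males, and of 5.87, 5.72 and 5.44 in HepCAV1ko females against 5.93, 6.05 and 6.26 in HepCAV1wt females. The arrays did not overlap within either gender, and the log2 fold change was -0.51 (SE 0.131, limma p = 0.00154, exact permutation p = 0.005). Lum, a proteoglycan of collagen fibrils, had -0.35 (exact permutation p = 0.04). Acta2, the actin of smooth muscle and activated stellate cells, had -0.49 (exact permutation p = 0.04), and -0.30 without HepCAV1wt control male replicate 1, its highest array at 7.12. Lrat and Reln, which mark quiescent stellate cells, had -0.01 and -0.27 and were not among the genes counted.

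Of 15 markers of endothelium, a main site of Cav1 in liver, 0 had an unadjusted p under 0.05 and the median was 0.03, with -0.05 without HepCAV1wt control female replicate 1. Of 13 macrophage markers 1 was higher (C1qb, a complement subunit, at 0.45, exact permutation p = 0.035) and 0 lower (7.69% against 4.77%), with a median of 0.14, and without both arrays that stand apart 0 were called and the median was 0.06. Of 16 genes of hepatocyte identity, 1 was higher (Cebpb) and 2 were lower (Onecut1 and Foxa1) at an unadjusted p under 0.05 (18.8% against 4.77%), with a median of 0.02. Alb had -0.01, Hnf4a 0.12 and Ttr -0.04. Foxa1, a pioneer transcription factor, had -0.42 (exact permutation p = 0.045), with -0.82 in males and -0.01 in females. The part of a shift in cell types in the Cav1 and collagen differences was not tested.

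**Figure D4:**
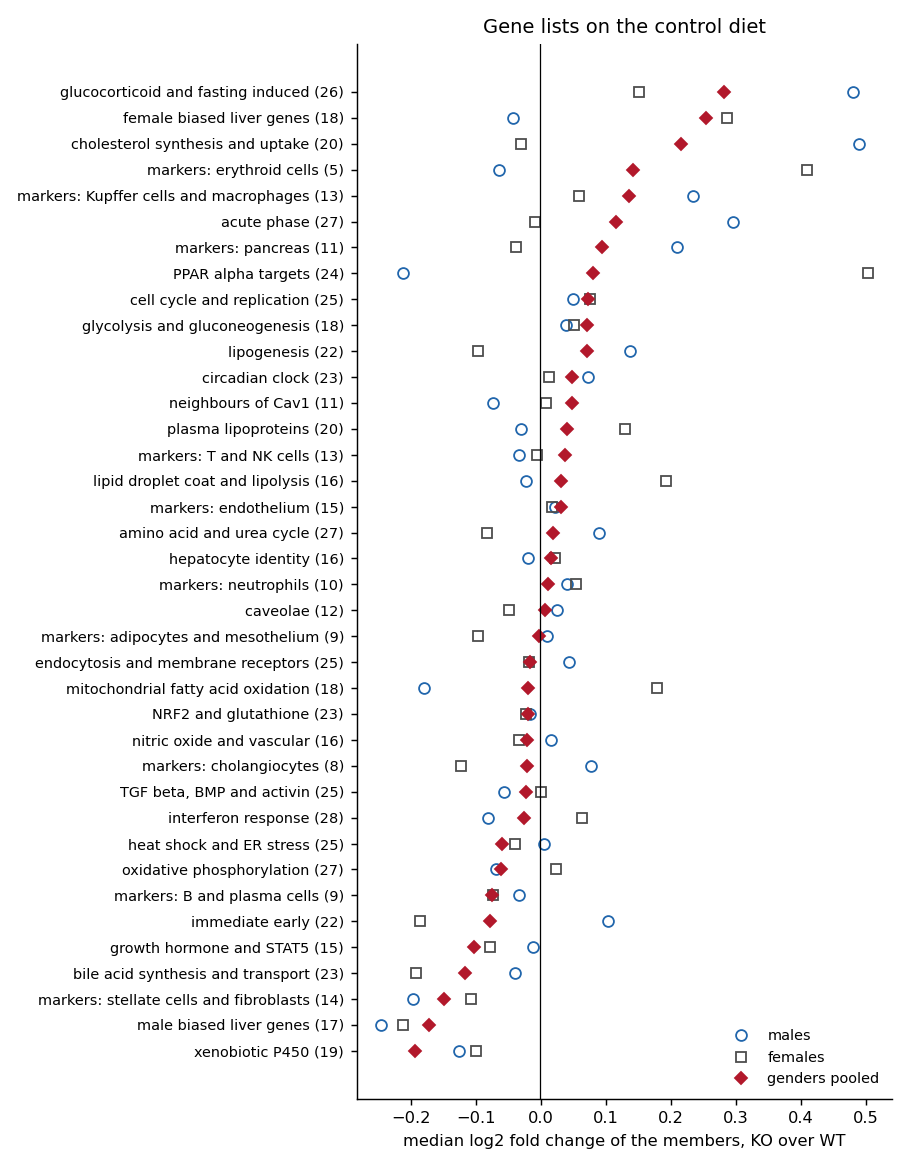
Median log2 fold change, HepCAV1ko over HepCAV1wt, of the 38 gene lists, with the number of genes measured beside each name (diamonds, both genders; circles, males; squares, females; line, median of all 24704 genes). Over both genders and all 12 arrays the glucocorticoid and fasting list has the highest median at 0.28 and the xenobiotic P450 list the lowest at -0.19.

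The genes of lowest p in limma had mostly small differences with little spread. They were picked by these same values, as were the genes of widest gaps, the largest differences and the list members named for low p. The permutation p of all these genes, and of those chosen after their values were seen, adds no further support. Atoh8, a transcription factor of the basic helix-loop-helix family, had log2 values of 6.34, 6.13 and 6.59 in HepCAV1ko males and 6.17, 6.38 and 6.31 in HepCAV1ko females, against 5.58, 5.51 and 5.52 in HepCAV1wt males and 5.52, 5.80 and 6.19 in HepCAV1wt females. It overlapped in 1 HepCAV1wt female array, and the log2 fold change was 0.64 (SE 0.124, 95% interval 0.37 to 0.90, limma p = 0.000143, the lowest of all genes, exact permutation p = 0.01). Cys1, the cilium protein cystin, had 4.25, 4.08 and 4.25 in HepCAV1ko males and 3.91, 4.38 and 3.92 in HepCAV1ko females, against 3.63, 3.45 and 3.54 in HepCAV1wt males and 3.63, 3.66 and 3.77 in HepCAV1wt females. The 6 arrays of each genotype did not overlap, with a gap of 0.14 and a log2 fold change of 0.52 (exact permutation p = 0.005). Tbx2, a T-box repressor, ran from 4.46 to 4.67 in HepCAV1ko and from 4.15 to 4.33 in HepCAV1wt (log2 fold change 0.34), and Cdhr3, a cadherin, had 0.30. Nepn, a proteoglycan, at -0.33 and Krt79, a keratin, at -0.30 were the named genes that did not overlap in the other direction. The mean log2 values of Nepn (2.26) and Cdhr3 (3.44) lay below the median of 3.82 over all genes. Dnaja4, a heat shock co-chaperone, had -0.40 (exact permutation p = 0.005).

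A pair of miRNA loci was among these genes, and their mature forms are shown because the loci, not the mature forms, name the features. Capitals mark the seed, bases 2 to 8 (RefSeq, GRCm38.p6).
mmu-miR-138-5p: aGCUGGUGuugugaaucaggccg
mmu-miR-138-1-3p: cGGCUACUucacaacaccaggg
mmu-miR-3076-3p: cGCACUCUggucuucccuugcag
The 3 seeds differ from each other. Mir138-1 on chromosome 9 had log2 values of 2.51, 2.69 and 2.55 in HepCAV1ko males and 2.41, 2.63 and 2.40 in HepCAV1ko females, against 2.28, 2.15 and 2.12 in HepCAV1wt males and 1.75, 2.11 and 2.20 in HepCAV1wt females. The genotypes did not overlap (log2 fold change 0.43, exact permutation p = 0.005), though all values lay below the array's median of 3.82. Mir3076 on chromosome 14 had 3.80, 3.76 and 5.51 in HepCAV1ko males and 3.51, 4.45 and 4.41 in HepCAV1ko females, against 3.25, 2.50 and 2.51 in HepCAV1wt males and 2.50, 2.90 and 3.72 in HepCAV1wt females. They overlapped through 1 HepCAV1wt female array, with a log2 fold change of 1.34 (SE 0.309, exact permutation p = 0.01). Without HepCAV1ko control male replicate 3 it was 1.06. The sources used here do not say whether these features read the mature form.

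Of the largest differences above median expression with 1 direction in both genders, some have not been described so far. Gbp11, an interferon-inducible GTPase, had -1.44 (exact permutation p = 0.03), with -2.56 in males and -0.33 in females, while 28 interferon genes had a median of -0.03. Without HepCAV1ko control male replicate 3, Gbp11 had -1.14. Myl6, a light chain of myosin, had -1.06 (exact permutation p = 0.05), with -0.39 in males and -1.73 in females. Nox4, an NADPH oxidase, had -0.67 (exact permutation p = 0.045) and Pla1a, a phospholipase of plasma, -0.64 (exact permutation p = 0.045). Alas2, the haem synthesis enzyme of red cells, had 0.89 (exact permutation p = 0.095). Acnat2, an acyltransferase of peroxisomes, had 0.78 (exact permutation p = 0.045) and Hddc3, a phosphohydrolase, 0.75 (exact permutation p = 0.04). The remaining members of these extremes were Bod1, Fthl17e and Zc3h3 from 0.67 to 0.80 and Tc2n, Gon7, Clec2h, Ass1, Dact1 and Lrtm1 from -0.85 to -0.63. Ass1 had -0.47 without HepCAV1ko control male replicate 3.

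Across the 24704 genes the effects in males and females had Pearson's r of -0.0048 and Spearman's rho of 0.0039 and the same sign in 50.6% of genes. The 2 effects share no array, and genes are not independent replicates. Within males 1278 genes (5.17%) had an unadjusted p under 0.05, 2.62% higher and 2.55% lower, and within females 1221 (4.94%), 2.61% higher and 2.34% lower. The lists shared 91 genes. Of these 40 had 1 direction, 3.13% of the male and 3.28% of the female list, and 51 had opposite directions. Adjusted counts were 1 in males and 0 in females.

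**Figure D5:**
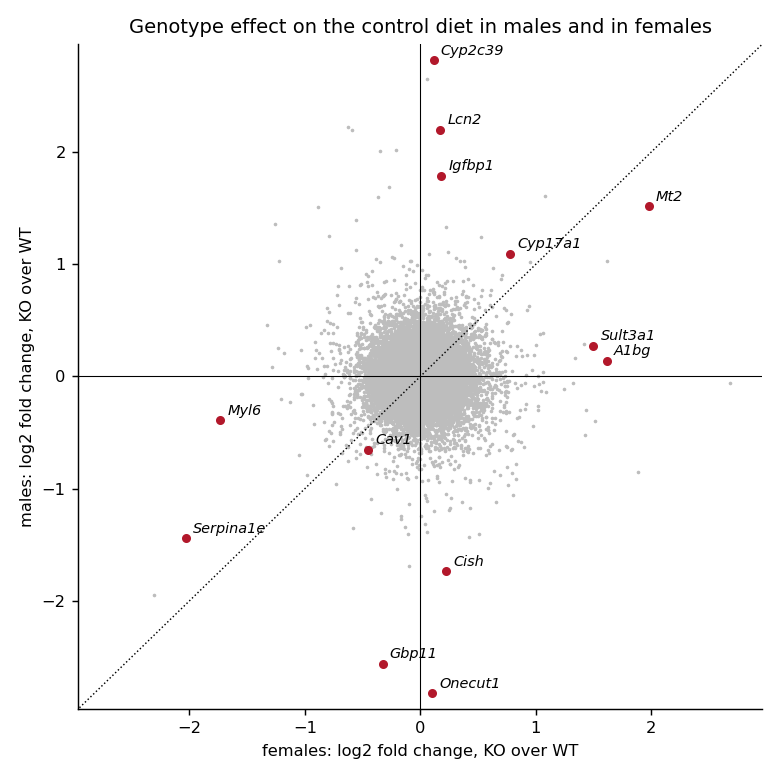
Log2 fold change, HepCAV1ko over HepCAV1wt, in females (x axis) and males (y axis) for all 24704 genes (grey) and 13 named genes (red), with a dotted line of equality. Cyp2c39 lies at 2.82 in males and 0.11 in females, and Onecut1 at -2.82 and 0.10.

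On the MCD diet, whose 12 arrays the control-diet comparison did not use, the genotypes were compared in the fit of all 24 arrays with 8 groups. Over both genders 0 genes passed and 759 (3.07%) had an unadjusted p under 0.05, where the same fit gave 1 (Cyp2c39) and 1268 on the control diet. Of the 12 genes with the largest fold changes above 0 on the control diet, 7 had the same sign on the MCD diet, and of the 12 below 0, 4 had. Cav1 had a log2 fold change of -0.07 on the MCD diet, Cyp2c39 0.21, Cyp17a1 0.24, Sult3a1 0.75, A1bg 0.63, Col3a1 -0.01, Fkbp5 0.28, Tsc22d3 -0.24 and Mt2 0.17. The glucocorticoid and fasting list had a median of -0.03. The difference between the diets passed for 0 genes (816 at an unadjusted p under 0.05, 3.3%), with Cyp2c39 at an adjusted p of 0.585 and Tsc22d3 at an unadjusted limma p of 0.0424. Over all genes the effects on the control and the MCD diet had Pearson's r of 0.11 and the same sign in 53.7%.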

How the data were processed

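Total RNA of whole liver was hybridised to single-colour Affymetrix mouse gene arrays. The authors summarised the probes with RMA and deposited log2 values for 25428 features, already background-corrected and normalized across arrays, so arrays are on one scale and very low values are compressed. The version of RMA was not given in the sources used here. Features were named through GEO's platform annotation and RefSeq symbols (GRCm38.p6), and 723 without a symbol were left out. The 24704 genes were fitted with limma 3.58.1 in R 4.3.3, with terms for gender and genotype over the 12 control-diet arrays, moderated variances and Benjamini-Hochberg adjustment over all genes. Fits with a mean for each of 4 groups (12 arrays) and of 8 groups (24 arrays) gave the effects within gender, their difference and the MCD values. Single genes were also tested by exact permutation of genotype within gender, two-sided, with 400 assignments. The script was tested on simulated data.

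The comparison, its members and the 38 gene lists (696 of 750 genes matched) were chosen with earlier results of these data known, so lists are described by counts and medians without a test. Named genes were Cav1, Cav2 and Cavin1, genes that passed, the 12 largest differences on each side at an unadjusted p under 0.05 above median expression with 1 direction in both genders and no predicted gene, the 10 of lowest p, up to 3 of lowest p in each list, and the 6 widest gaps between genotypes. Predicted genes of the last sets are not described. Cish, Mt1, Foxo1, Cyp2c29, Cyp2c55, Socs2, Saa1, Lcn2 and Serpina1d, and list members given without a p under 0.05, were chosen after their values were seen. The number of arrays limits the precision.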

Additional observations from a re-analysis of the deposited data

Results flagged for a closer look

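In 136 groups of 6 arrays (56 genes and 12 lists per genotype), the highest or lowest array was compared with its nearest neighbour. The gap as a share of the group's range marked 7 groups. For a uniform group chance marks about 1 in 20, but each group held 3 males and 3 females, so that rate need not apply. Where gender sets the range, as for Serpina1e, a deviating array can go unmarked. In HepCAV1ko livers the marked array was control male replicate 3 for Saa1 (13.10 against 6.41 to 8.74, share 0.652), for Lcn2 (12.66 against 6.86 to 8.50, share 0.718) and for the acute phase mean (10.84 against 8.93 to 9.16, share 0.881). There it was control male replicate 1 for Acta2 (5.86 against 5.46 to 5.61, share 0.625) and control female replicate 1 for the endothelial mean (7.70 against 7.32 to 7.44, share 0.686). In HepCAV1wt livers it was control female replicate 1 for Mir138-1 (1.75 against 2.11 to 2.28, share 0.679) and control male replicate 3 for the cholesterol synthesis mean (7.71 against 8.25 to 8.54, share 0.648).

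Cyp2c39 was picked out because its genotype effect differed between males and females by 2.70 on the log2 scale, by limma's test of the difference (adjusted p = 0.0188).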

How the results depend on the processing

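The count of genes past an adjusted p of 0.05 over both genders was 0, and it was 1 (Cyp2c39) in the fit of all 24 arrays (adjusted p = 0.000331) and with a mean for each of the 4 groups (adjusted p = 0.00735). It was 0 under the other alternatives, with array weights, the methods' t-test and each of the 12 leave-outs among them. At an unadjusted p under 0.05 there were 613 genes among those above median expression in place of 1179, 977 by the methods' t-test, 1268 in the fit of 24 arrays and 1037 to 1613 over the leave-outs. Without both arrays that stand apart, chosen after seeing the data, there were 1074, of which 568 were among the 1179, and 33 of 56 genes described kept a p under 0.05, against 50. The count for the difference between genders was 0 to 1 over the leave-outs (1 without HepCAV1wt control female replicate 3, HepCAV1ko control male replicate 2 or HepCAV1ko control female replicate 2), and its unadjusted count was 636 above median expression in place of 1242. In males the count was 1 to 3 over the leave-outs. The male-biased gene Moxd1 was added, higher in HepCAV1ko, without HepCAV1wt control male replicate 1. Cish and Tdpoz8 were added, both lower, without HepCAV1wt control female replicate 1. In females the count was 0 to 2, with A1bg and Npl, both higher, without HepCAV1ko control female replicate 3. The difference between diets called 0 genes in each setting run. Replicate numbers did not pair the arrays (same-numbered arrays of the 2 genotypes deviated with r of -0.044 to 0.044, and 2 of 6 correlated best with their own number), and with the replicate number as a block 0 genes passed, 1237 had an unadjusted p under 0.05 and the Cyp2c39 difference had an adjusted p of 0.0223. No gene with an unadjusted p under 0.05 reversed, but 4 values near 0 changed sign under at least 1 alternative, those of Cav2 (0.06, and -0.05 without both arrays that stand apart) and the medians of the acute phase, caveolae and endothelium. RMA values give no depth, so signal near the array's floor, as for Mir138-1, Nepn or Sult3a1 in males, limits those fold changes.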

Other observations

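Of the 723 features without a symbol, 36 had an unadjusted p under 0.05 and none passed after adjustment (smallest limma adjusted p 0.954). Ldha, the lactate dehydrogenase subunit of muscle and stressed tissue, had a log2 fold change of 0.33 over both genders (exact permutation p = 0.015), and Pygl, the glycogen phosphorylase of liver, one of -0.28 (exact permutation p = 0.02). Mcm2, a replication licensing factor, had 0.42 (exact permutation p = 0.02), with 1 higher and 0 lower of 25 cell cycle genes (4% against 4.77% of all genes). Abcb11, the bile salt export pump, had -0.41 (exact permutation p = 0.025). Bile acid synthesis and transport had 0 higher and 1 lower of 23 genes at an unadjusted p under 0.05 (4.35% against 4.77%). There 17 of 23 fold changes lay below 0, against 12414 of 24704 over all genes.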
